A study of Mus musculus with 24 samples.

Results

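Fibroblasts are commonly recognised by a small set of surface and structural genes, and 8 of them were followed here: Thy1, Pdgfra, Pdgfrb, Cd44, Eng, Ddr2, S100a4 and Vim. They were taken by gene symbol from the deposited count table, and all 8 were found among its 23283 genes. RNA had been sequenced in 24 mouse libraries of 6 groups, each from the cytosolic RNA of 1000 sorted cells. Fast cycling MEF (4 libraries) and slow cycling MEF (4 libraries) were mouse embryonic fibroblasts kept for 6 days in embryonic stem cell medium with 15% serum, 1000 U/ml LIF and 2 ug/ml doxycycline, which switched on the Yamanaka factors, and were separated by CFSE, a dye shared out at each division, after 48 hours. Factor-independent induced pluripotent stem cells (iPS, 4 libraries) were grown in the same medium without doxycycline and sorted for an Oct4:GFP reporter. Bulk MEF (4 libraries) were untreated and grown with 10% serum. Their labels read bulk, unsorted and, for cycle speed, slow, whereas the common extraction protocol describes sorting into wells. Fast (5 libraries) and slow (3 libraries) cycling granulocyte monocyte progenitors (GMP) were blood progenitors grown in serum-free medium with mSCF, mIL3, Flt3L and mTPO and separated by the same dye after 24 hours. The labels give no strain, genotype, sex or age, do not say how the factors were delivered, and do not state whether replicates were separate cultures. The p-values therefore reflect only how far these libraries scatter, and that scatter may be technical.

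The 8 genes cover different parts of a fibroblast. Thy1 encodes a small glycoprotein tethered to the outer membrane by a lipid anchor, and its loss is used to gate early reprogramming cells. Pdgfra and Pdgfrb encode the receptor tyrosine kinases for platelet-derived growth factors, Ddr2 a receptor tyrosine kinase for fibrillar collagen, Cd44 the main receptor for hyaluronan, and Eng endoglin, a co-receptor for ligands of the Tgf-beta and Bmp family. S100a4 encodes a small calcium-binding protein also called fibroblast-specific protein, and Vim encodes vimentin, the intermediate filament of mesenchymal cells. Several are not private to fibroblasts: Cd44, S100a4 and Vim are well known in blood cells, Eng in endothelium and Pdgfrb in pericytes.

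Library totals ran from 2098846 to 4411526 counts in the 8 GMP libraries and from 4937453 to 18648132 in the other 16. The share of Rn45s and Lars2, to which ribosomal RNA reads map, was 19.9% to 48.86% in GMP libraries and 3.05% to 11.73% elsewhere. Fast GMP replicate 1 detected 18402 genes, the most of all 24 libraries. The summed level of 10 other fibroblast genes (Col1a1, Col1a2, Col3a1, Dcn, Lum, Postn, Sparc, Fn1, Prrx1 and Loxl1) was 1827 to 2492 CPM (read counts scaled to library size) in iPS, 6614 to 9276 CPM in fast MEF, 72850 to 120100 CPM in slow MEF and 51780 to 69940 CPM in bulk MEF, and at most 748 CPM in any GMP library. Sparc and Col1a1 made up most of the sum in each MEF group, and Sparc alone most of it in iPS (1622 CPM on average). Not every gene followed the sums from bulk MEF to fast MEF to iPS. Fn1 averaged 342 CPM in iPS and 78.4 CPM in fast MEF. Dcn averaged 61.1 CPM in fast MEF and 42.5 CPM in bulk MEF, and Lum 1.29 and 1.15 CPM. The 10 pluripotency markers summed to 2394 to 3316 CPM in iPS and to at most 36.6 CPM in any MEF library, and the 9 GMP markers found in the file to 5302 to 24780 CPM in GMP and at most 61.3 CPM elsewhere. As a check of the induction, Sox2 averaged 296 ± 101 CPM in fast MEF, 8.33 ± 5.63 CPM in slow MEF and 1.37 ± 1.93 CPM in bulk MEF (SD, n = 4 each). The check given here rests on Sox2 alone of the factor genes.

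**Figure D1:**
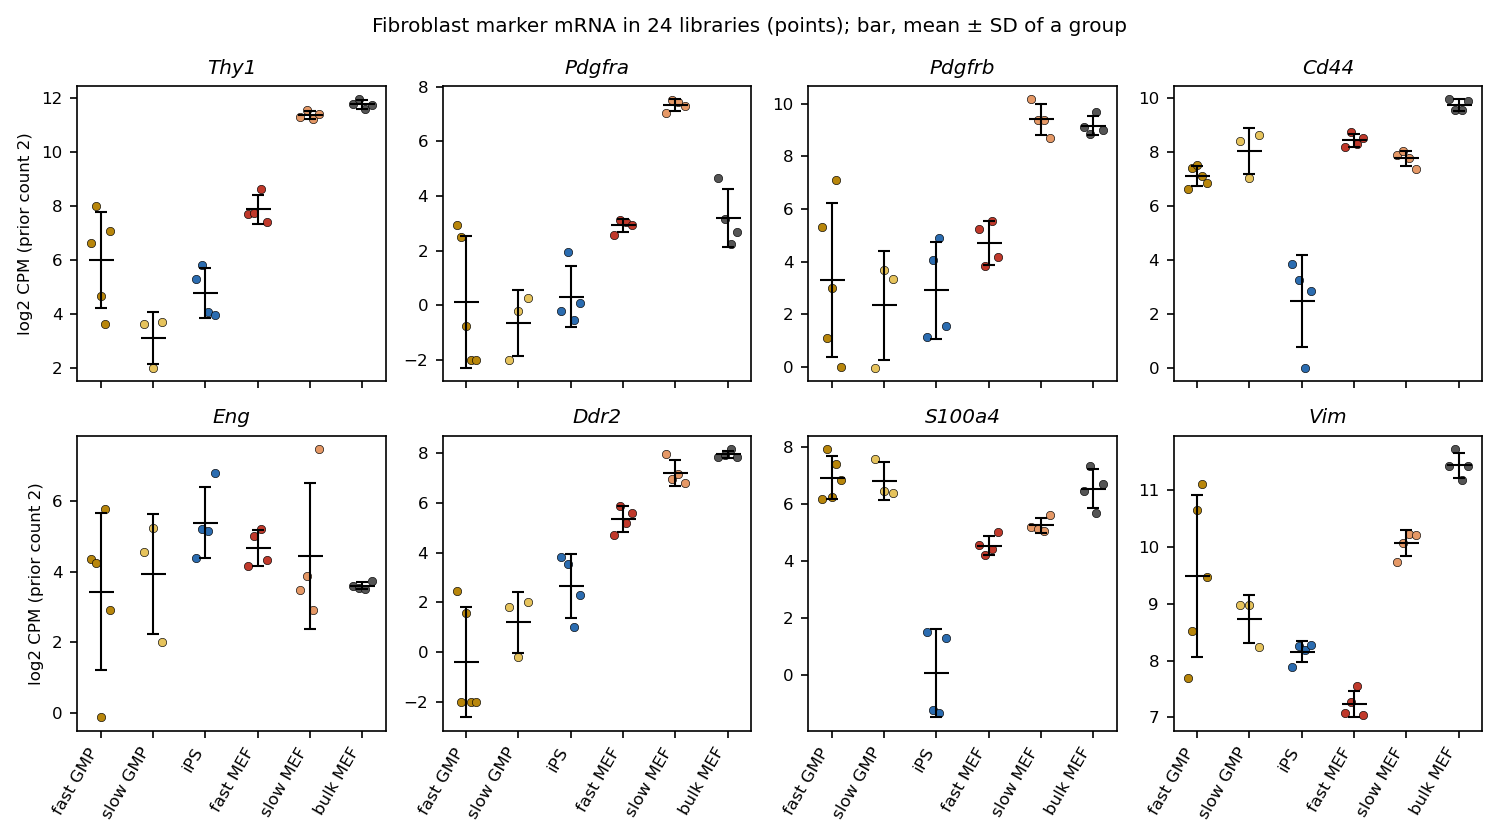
Level of each of the 8 genes in every library, as log2 CPM with a prior count of 2 (vertical axis), by group (horizontal axis); points are libraries and bars the group mean ± SD. Thy1, Pdgfrb and Ddr2 form a high pair of slow and bulk MEF, Pdgfra is high in slow MEF, S100a4 overlaps between GMP and bulk MEF, and Vim is lowest in fast MEF.

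Levels in bulk MEF spread widely. Per kilobase of the longest protein-coding transcript, Thy1 stood at 2020 ± 213 CPM and Vim at 1280 ± 202 CPM in bulk MEF (SD, n = 4). Next came S100a4 at 204 ± 92.1, Cd44 at 152 ± 22.2, Pdgfrb at 108 ± 29.3 and Ddr2 at 28.7 ± 3.12 CPM per kilobase. The place of S100a4 rests on its transcript of 498 bases. Without the division it averaged 102 CPM, below Cd44 (853 CPM), Pdgfrb (586 CPM) and Ddr2 (246 CPM). Eng, at 3.48 ± 0.255, and Pdgfra, at 1.63 ± 1.39 CPM per kilobase, were the lowest of the 8 in these fibroblasts. All values below are CPM without division by length, so they compare groups and not genes.

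In fast MEF against bulk MEF, 6 of the 8 genes fell and none rose, where 18.4% of the 11335 genes tested were lower, 16.5% higher and 34.9% either (edgeR quasi-likelihood test, Benjamini-Hochberg adjusted p under 0.05). Their median log2 fold change was -2.41, against -0.05 over all genes tested. In iPS against fast MEF, 5 fell further and 1, Vim, rose, where 19.7% of 11882 genes were lower, 18.8% higher and 38.4% either. In iPS against bulk MEF, 7 fell and 1, Eng, rose, where 23.3% of 11736 genes were lower, 24.1% higher and 47.4% either; the median of the 8 was -5.29, against 0.10 over all genes. These 3 comparisons share their libraries with each other. Induction of the factors, culture medium and sorting by dye all separate fast from bulk MEF and cannot be told apart, and in these sorted pools fewer cells with a transcript and less of it per cell cannot be told apart either.

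Thy1 fell in both steps. It stood at 209, 214, 393 and 169 CPM in fast MEF, against 3499, 3969, 3065 and 3482 CPM in bulk MEF. No fast MEF library came within reach of the lowest bulk MEF library, and the log2 fold change was -3.89 ± 0.32 (SE, adjusted p = 1.24e-05). In iPS it stood at 39.0, 56.0, 16.4 and 15.1 CPM, all below the lowest fast MEF library. That second step was -3.00 ± 0.50 on the log2 scale (adjusted p = 0.00129), and the whole distance from bulk MEF to iPS -6.83 ± 0.49 (adjusted p = 9.6e-06).

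The platelet-derived growth factor receptors lost different amounts in fast MEF. Pdgfrb, the receptor best known from pericytes and other mural cells, stood at 37.9, 13.9, 46.8 and 17.8 CPM in fast MEF, against 551.6, 465.6, 818.9 and 510 CPM in bulk MEF (log2 fold change -4.39 ± 0.46, adjusted p = 6.56e-05). In iPS it ranged from 1.97 to 29.6 CPM and overlapped fast MEF, and that step did not pass (-1.24 ± 0.82, adjusted p = 0.26). Against bulk MEF, iPS were lower (-5.58 ± 0.84, adjusted p = 0.000481), and without iPS replicate 3, the highest at 29.6 CPM, the value was -6.46. Beside Pdgfrb, the summed level of 8 pericyte and smooth muscle markers was 8.92 to 103 CPM in fast MEF and 1734 to 2651 CPM in bulk MEF. Most of the bulk MEF sum was Cnn1, at 1889 CPM on average. All 4 markers tested were lower in fast MEF, where 18.4% of all genes tested were. In iPS the 8 markers summed to 43.0 to 408 CPM. Against bulk MEF, 3 of 5 tested were lower in iPS and 0 higher, where 23.3% of all genes were lower. By level Des averaged 132 CPM and Notch3 12.8 CPM in iPS, above the 26.2 and 8.13 CPM of bulk MEF. Cspg4 averaged 3.23 CPM in fast MEF and 125 CPM in bulk MEF, Des 0.448 CPM in fast MEF and 26.2 CPM in bulk MEF, and Myh11 0.287 CPM in fast MEF and 15.2 CPM in bulk MEF. Rgs5, Kcnj8 and Abcc9 averaged at most 1.18 CPM in either group, and no marker of the list was without counts in either; the part of such cells in the result was not tested.

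Pdgfra, the receptor that marks many fibroblasts of developing and adult connective tissue, was barely present in bulk MEF. It stood at 5.72, 8.50, 8.12 and 7.39 CPM in fast MEF, against 25.2, 8.68, 4.43 and 6.25 CPM in bulk MEF. The groups overlapped and did not differ past the threshold (-0.66 ± 0.59, adjusted p = 0.416), and without bulk MEF replicate 1, the high library, the value was 0.12. In iPS it stood at 0.606, 3.63, 0.446 and 0.801 CPM, and iPS were lower than fast MEF (-2.44 ± 0.76, adjusted p = 0.0279) and than bulk MEF (-3.05 ± 0.87, adjusted p = 0.016). Those calls were fragile: the first was lost without iPS replicate 1, 3 or 4 or fast MEF replicate 2 or 4 (adjusted p from 0.0533 to 0.0703), and the second without bulk MEF replicate 1 (-2.27, adjusted p = 0.0571). Without iPS replicate 2 the log2 fold changes were -3.58 and -4.17.

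Cd44 fell least among the 6 genes that fell in fast MEF. It stood at 289, 423, 313 and 366 CPM in fast MEF, against 979, 753, 739 and 940 CPM in bulk MEF, a drop without overlap (-1.38 ± 0.19, adjusted p = 0.000381). In iPS it stood at 13.9, 9.11, 0.744 and 6.81 CPM. The step from fast MEF to iPS was therefore the larger one, at -5.53 ± 0.72 (adjusted p = 0.000326), and the distance from bulk MEF to iPS, -6.85 ± 0.76 (adjusted p = 8.82e-05), ended close to that of Thy1.

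Ddr2 and S100a4 fell in both steps. Ddr2 stood at 25.6, 58.5, 36.4 and 48.1 CPM in fast MEF, against 230, 241, 286 and 229 CPM in bulk MEF (-2.64 ± 0.29, adjusted p = 8.25e-05), and at 13.8, 11.5, 1.79 and 4.65 CPM in iPS (-2.42 ± 0.60 against fast MEF, adjusted p = 0.0103). S100a4 stood at 23.2, 18.3, 21.1 and 32.2 CPM in fast MEF, against 88.7, 162, 51.1 and 105 CPM in bulk MEF (-2.18 ± 0.38, adjusted p = 0.00156). In iPS it was almost gone, with 17, 2, 3 and 28 counts per library (-4.25 ± 0.91 against fast MEF, adjusted p = 0.00489). Beside both, 10 macrophage markers, each with counts in all 3 groups, summed to 10.3 to 31.6 CPM in fast MEF, 16.3 to 55.3 CPM in iPS and 193 to 335 CPM in bulk MEF, and their part in these results was not tested. Of the iPS sum, Cd68 made up 34.7 CPM on average, against 12.2 CPM in bulk MEF, and the other 9 averaged at most 0.24 CPM each in iPS. A gene on the opposite strand, 3110045C21Rik, also overlaps Ddr2 and was at most at 1.45 CPM in any MEF or iPS library. Neither Ddr2 nor S100a4 overlapped between any pair of the groups bulk MEF, fast MEF and iPS. The value of S100a4 in iPS against bulk MEF was -6.39 ± 0.95, and -7.00 without iPS replicate 1.

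Vim was lower in fast MEF than in iPS. It stood at 134, 153, 187 and 132 CPM in fast MEF, against 2746, 3399, 2325 and 2756 CPM in bulk MEF, one of the largest drops among the 8 (-4.28 ± 0.23, adjusted p = 8.07e-07). In iPS it stood at 236, 307, 292 and 311 CPM. All 4 iPS libraries lay above all 4 fast MEF libraries, and Vim rose by 0.90 ± 0.21 on the log2 scale (adjusted p = 0.00784) while remaining -3.33 ± 0.20 from bulk MEF (adjusted p = 3.89e-06). Beside it, the keratin filament genes Krt14 and Krt8 were high in fast MEF: Krt14 averaged 9869 CPM in fast MEF and 2.79 CPM in bulk MEF, and Krt8 1690 CPM in fast MEF and 0.555 CPM in bulk MEF. The summed level of all 8 keratinocyte markers was 9160 to 15280 CPM in fast MEF, 48.9 to 622 CPM in slow MEF and 73.3 to 84.0 CPM in bulk MEF. The sum in fast MEF came from Krt14, Sfn (2800 CPM on average), Dsp (511 CPM) and Perp (190 CPM), while Krt5, Krt10, Krt15 and Trp63 averaged at most 2.04 CPM there. Trp63 had no count in bulk MEF, and the part of that in the loss of Vim was not tested.

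Eng went the other way. It stood at 17.5, 31.8, 36.4 and 19.7 CPM in fast MEF, against 11.8, 11.5, 11.2 and 13.2 CPM in bulk MEF. Every fast MEF library was above every bulk MEF library, yet the difference missed the threshold (1.08 ± 0.40, adjusted p = 0.0565). The difference passed with DESeq2 size factors, upper-quartile factors, a stricter filter on low counts or DESeq2 (adjusted p from 0.00764 to 0.0441). It missed with the other alternatives, and each time 1 library was left out (adjusted p from 0.0529 to 0.119). In iPS Eng stood at 20.8, 36.7, 35.5 and 111 CPM, higher than in bulk MEF (2.08 ± 0.52, adjusted p = 0.00821). Without iPS replicate 4, the highest library, the value was 1.35 (adjusted p = 0.0212). An exon of Fpgs, a gene on the opposite strand, overlaps an exon of Eng, and without a stated strand setting their reads may have been mixed; Fpgs averaged 132 ± 27.9 CPM in iPS, 53.9 ± 26.5 CPM in fast MEF and 77.4 ± 51.7 CPM in bulk MEF (SD, n = 4 each). The 9 endothelial markers summed to 107 to 138 CPM in iPS, 26.7 to 40.8 CPM in fast MEF and 2.53 to 12.1 CPM in bulk MEF. Against bulk MEF, 4 of 6 tested were higher in iPS, where 24.1% of all genes tested were. In fast MEF 2 of 5 were higher, where 16.5% of all genes tested were. None was lower in either. Pecam1, also known from pluripotent cells, averaged 99.3 CPM in iPS and 0.831 CPM in bulk MEF, and Tek 3.57 CPM in iPS, 25.1 CPM in fast MEF and 0.0708 CPM in bulk MEF. Tie1 averaged 5.10 CPM in iPS and Esam 5.75 CPM, against 0.0241 and 0.276 CPM in bulk MEF. Emcn had no count in iPS, fast MEF or bulk MEF, Esam none in fast MEF, and Cdh5 and Cldn5 none in bulk MEF; the part of such cells in the level of Eng was not tested.

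**Figure D2:**
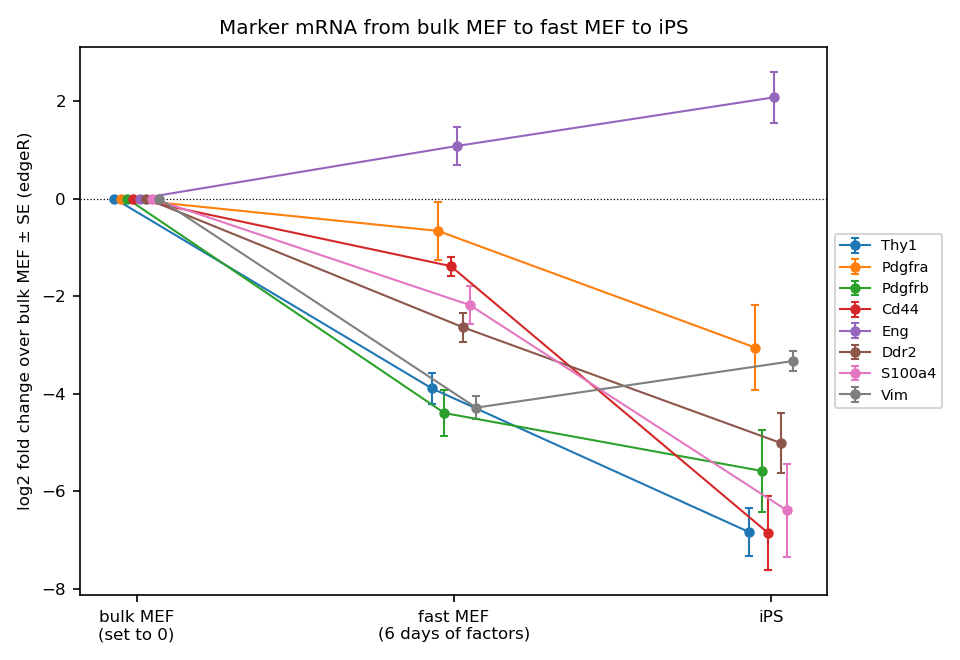
Log2 fold change over bulk MEF with its SE from edgeR (vertical axis) for each gene in bulk MEF (set to 0), fast MEF and iPS (horizontal axis). Pdgfrb, Vim and Thy1 are near -4 in fast MEF, Cd44 is at -1.38 there and at -6.85 in iPS, Vim turns upward in iPS and Eng is above 0 throughout.

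The order of loss in fast MEF ran from Pdgfrb (-4.39) and Vim (-4.28) through Thy1 (-3.89), Ddr2 (-2.64), S100a4 (-2.18) and Cd44 (-1.38) to Pdgfra (-0.66) and Eng (1.08), as log2 fold changes over bulk MEF. To see which neighbours could be told apart, the log2 ratio of 2 genes within a library was compared between fast and bulk MEF for all 28 pairs by a two-sided exact permutation test. Of the pairs, 21 reached the smallest p that 4 against 4 libraries allow, 0.0286 (0.0381 after Benjamini-Hochberg adjustment over the 28). Pdgfrb, Vim and Thy1 could not be ordered among themselves (exact p from 0.0571 to 0.657), nor could Ddr2 and S100a4 (exact p = 0.286), nor S100a4 and Cd44 (exact p = 0.114). Pdgfra could not be ordered against Cd44 (exact p = 0.114) or S100a4 (exact p = 0.0857). Ddr2 fell more than Cd44 (by 1.301 on the log2 scale) and less than Vim, Thy1 and Pdgfrb. The position of S100a4 could therefore not be told apart from those of Ddr2, Cd44 and Pdgfra, nor that of Pdgfra from that of Cd44. Pdgfra and Eng were told apart (exact p = 0.0286). The order is one of amounts in a single sampled group, not of times.

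A second measure of order asked where fast MEF lay between the endpoints: the log2 level in fast MEF minus the mean of the log2 levels of bulk MEF and iPS, fitted over the 3 groups. For a gene lower in iPS, a value above 0 places fast MEF nearer bulk MEF. Of the 8 genes, 2 passed, 1 in each direction, where 15.8% of 12625 genes were above, 13.3% below and 29.1% either. These counts are near the shares of all genes. Cd44 was at 2.01 ± 0.43 (adjusted p = 0.0037), still nearer bulk MEF. Vim was at -2.66 ± 0.19 (adjusted p = 6.04e-07), beyond the iPS end. Pdgfrb was at -1.65 ± 0.64 (adjusted p = 0.0676), and passed with DESeq2 (adjusted p = 0.0346) and without iPS replicate 1 or 4. Without 1 library its value ran from -1.95 to -1.19, the last without iPS replicate 3, and its adjusted p from 0.0278 to 0.167. Thy1 (-0.51 ± 0.35), Ddr2 (-0.17 ± 0.42) and S100a4 (0.98 ± 0.57) did not pass. On the scale of log2 CPM, 17.9% of the distance of Cd44, 30.9% of that of S100a4, 49.3% of that of Ddr2, 55.8% of that of Thy1 and 71.4% of that of Pdgfrb had been covered in fast MEF.

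In the fit that pooled all 24 libraries, GMP included, several of these calls were lost. They were Cd44 and Ddr2 in fast against bulk MEF (adjusted p = 0.103 and 0.0531), Pdgfra, Ddr2 and Vim in iPS against fast MEF (0.105, 0.0668 and 0.227) and Eng in iPS against bulk MEF (0.145). The log2 fold changes there, -1.34, -2.59, -2.43, -2.41, 0.91 and 2.06, were near those given above.

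Because Vim, Cd44, S100a4 and Eng followed such different courses, their promoters are shown. Promoters of 6 of the 8 genes were kept from the RefSeq table used here. Each line gives the 250 bases before the annotated start, 5′ to 3′ on the gene's strand, in build GRCm38.p6, with matches to the searched motifs in capitals. The windows are chr2:13574061-13574310 (plus strand) for Vim, chr2:102901666-102901915 (minus strand) for Cd44, chr3:90603520-90603769 (plus strand) for S100a4 and chr2:32646345-32646594 (plus strand) for Eng.
Vim: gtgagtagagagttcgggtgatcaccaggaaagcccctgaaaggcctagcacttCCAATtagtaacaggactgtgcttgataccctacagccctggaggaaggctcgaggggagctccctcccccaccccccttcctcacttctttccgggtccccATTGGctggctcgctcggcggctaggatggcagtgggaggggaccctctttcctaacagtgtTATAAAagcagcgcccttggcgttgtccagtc
Cd44: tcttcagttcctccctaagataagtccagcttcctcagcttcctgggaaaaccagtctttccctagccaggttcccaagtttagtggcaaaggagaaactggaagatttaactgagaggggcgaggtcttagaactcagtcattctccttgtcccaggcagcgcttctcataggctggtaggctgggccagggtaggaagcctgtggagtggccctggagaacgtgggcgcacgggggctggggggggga
S100a4: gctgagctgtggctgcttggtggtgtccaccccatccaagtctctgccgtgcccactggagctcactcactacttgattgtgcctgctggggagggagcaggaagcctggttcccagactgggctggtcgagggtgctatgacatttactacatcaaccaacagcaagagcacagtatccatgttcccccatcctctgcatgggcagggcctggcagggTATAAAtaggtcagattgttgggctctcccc
Eng: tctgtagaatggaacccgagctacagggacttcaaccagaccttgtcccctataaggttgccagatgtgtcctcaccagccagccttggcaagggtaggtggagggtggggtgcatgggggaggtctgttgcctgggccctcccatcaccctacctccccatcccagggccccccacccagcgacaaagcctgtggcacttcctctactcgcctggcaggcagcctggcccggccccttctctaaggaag
Both strands were searched for TGANTCA (AP-1), GGAATG (TEAD), CAGGTG (Snail and Zeb E-box), CCAAT (the site of the factor NF-Y), TATAAA (the core of the classical box bound by Tbp), GGGCGG (GC box) and the CArG box of serum response factor. Counted from the start site, Vim held the Tbp motif at bases -32 to -27 and the NF-Y motif at -196 to -192 and, on the reverse strand, at -94 to -90, and S100a4 held the Tbp motif at -31 to -26. The windows of Cd44 and Eng held none of the 7 motifs. Over the 27025 genes with a promoter in the table, the share of windows with a match was 13% for the Tbp motif, 34.5% for NF-Y, 6.87% for AP-1, 12.6% for TEAD, 17.1% for the E-box, 32.9% for the GC box and 1.4% for the CArG box. None of the matches overlapped another.

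Slow cycling MEF had gone through the same 6 days of induction. Against bulk MEF, 3 of the 8 genes fell and 1 rose, where 4.99% of 11253 genes were lower and 5.51% higher. Thy1 stood at 2556, 3050, 2401 and 2721 CPM in slow MEF, just below bulk MEF, and did not pass (-0.36 ± 0.15, adjusted p = 0.165). Pdgfrb, at 1151, 666, 667 and 415 CPM, overlapped bulk MEF (0.34 ± 0.30, adjusted p = 0.506), and Ddr2, at 248.9, 122, 141 and 111 CPM, overlapped it too (-0.63 ± 0.29, adjusted p = 0.197; -0.96 and adjusted p = 0.0403 without slow MEF replicate 1).

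Pdgfra was the gene that rose. It stood at 130, 184, 171 and 157 CPM in slow MEF, against 25.2, 8.68, 4.43 and 6.25 CPM in bulk MEF (3.88 ± 0.54, adjusted p = 0.0015; 4.65 without bulk MEF replicate 1). Slow MEF thus held more Pdgfra mRNA than any other group, and fast MEF held 5.72 to 8.50 CPM. The pooled fit of all 24 libraries gave 3.84 with an adjusted p of 0.0869.

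Cd44, Vim and S100a4 were the members lower in slow MEF. Cd44 stood at 232, 261, 216 and 166 CPM in slow MEF, below all bulk MEF libraries (-1.93 ± 0.22, adjusted p = 0.000468). Vim stood at 853, 1080, 1201 and 1189 CPM (-1.35 ± 0.19, adjusted p = 0.00151). S100a4 stood at 36.9, 34.4, 33.4 and 49.4 CPM (-1.37 ± 0.38, adjusted p = 0.0394), a call that any single omission ended except those of slow MEF replicate 4 and bulk MEF replicate 3 (0.0622 to 0.0997 as adjusted p). In the pooled fit none of the 4 changes passed. Eng stood at 10.97, 14.6 and 7.38 CPM in slow MEF replicates 1 to 3, within or near the range of bulk MEF, and at 177 CPM in replicate 4. Its value of 2.18 ± 0.90 (adjusted p = 0.151) rested on that library and was -0.09 without it.

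Between the dye gates of induced MEF, 5 of the 8 genes fell in fast against slow MEF and none rose, where 17.3% of 11742 genes were lower, 14.4% higher and 31.7% either. Pdgfrb (-4.76 ± 0.51), Pdgfra (-4.57 ± 0.29), Thy1 (-3.56 ± 0.31), Vim (-2.97 ± 0.22) and Ddr2 (-2.04 ± 0.36) fell (adjusted p from 8.09e-06 to 0.00197), and the libraries of these 5 did not overlap between gates. Ddr2 did not pass in the pooled fit (adjusted p = 0.15). Cd44 was at 0.52 ± 0.22 (adjusted p = 0.0933, and 0.047 with DESeq2): its 4 fast MEF libraries, at 289 to 423 CPM, lay above all 4 slow MEF libraries, at 166 to 261 CPM. S100a4 was at -0.84 ± 0.33 (adjusted p = 0.0742, and 0.0367 with DESeq2). The gates also differed in the mRNA of Sox2, at 200 to 391 CPM in fast MEF and 3.56 to 16.1 CPM in slow MEF. They differed too in the fibroblast and keratinocyte marker sums given above for both, and these differences cannot be told apart from the dye gate. The gate difference was also compared between MEF and GMP, a test added after the data were seen. By that contrast 3 of the 8 genes (Thy1, Pdgfra and Vim) were lower, where 0.796% of 13814 genes were. In either direction 1.4% passed. Pdgfra, with at most 26 counts in any GMP library, was too low to be tested between the GMP gates themselves.

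**Figure D3:**
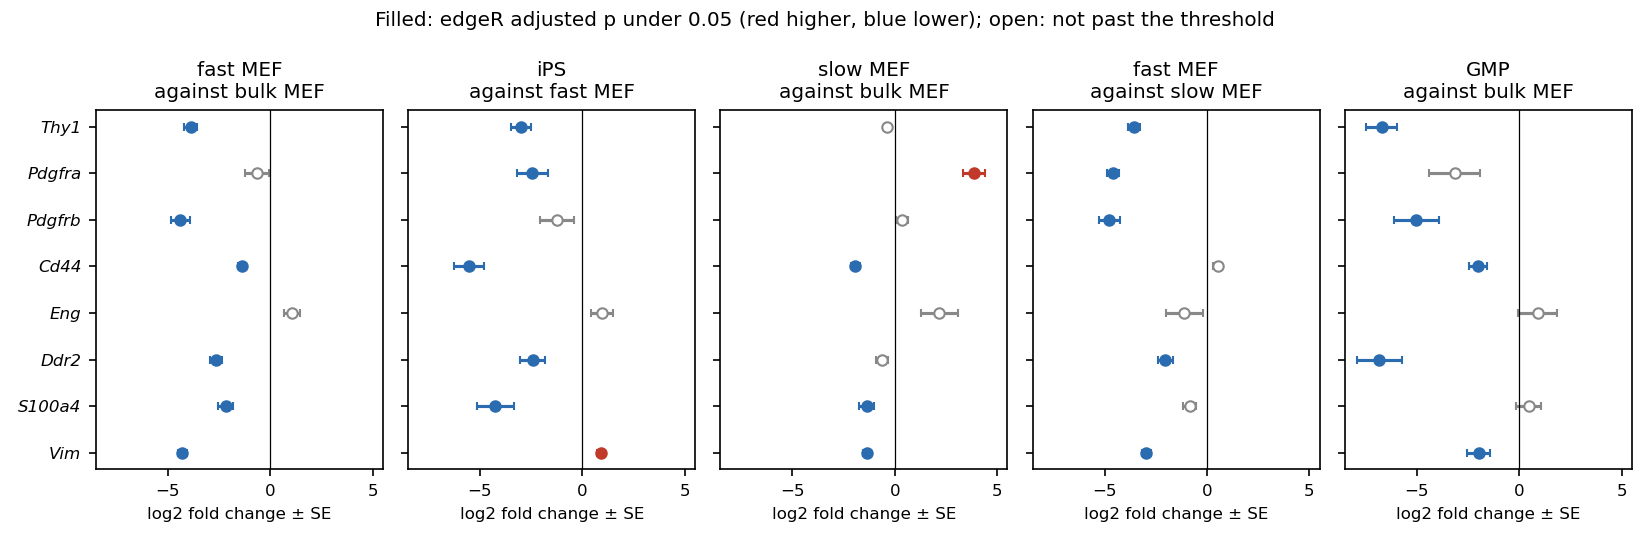
Log2 fold change with its SE (horizontal axis) of each gene (rows) in 5 comparisons (panels); filled points passed edgeR at an adjusted p of 0.05, red for higher and blue for lower, and open points did not. Pdgfra is the filled red point of slow against bulk MEF, at 3.88, and Vim that of iPS against fast MEF, at 0.90.

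GMP, which are no fibroblasts, give the level of the 8 genes in blood progenitors. Against bulk MEF, 5 of the 8 were lower in GMP and none higher, where 9.79% of 12170 genes were lower and 11.5% higher. Thy1 (-6.71 ± 0.76, adjusted p = 4.14e-05), Ddr2 (-6.82 ± 1.08, adjusted p = 0.000571) and Pdgfrb (-5.03 ± 1.09, adjusted p = 0.00523) were far lower, and Pdgfrb was at -5.83 without fast GMP replicate 4, which held 138 CPM. Cd44 and Vim were lower by smaller amounts (-2.0 ± 0.45 and -1.97 ± 0.55, adjusted p = 0.00618 and 0.0213); Vim missed the threshold without bulk MEF replicate 2 (adjusted p = 0.0639). S100a4 overlapped between GMP and bulk MEF, at 136 ± 73.1 CPM in fast GMP (n = 5), 123 ± 62.5 CPM in slow GMP (n = 3) and 102 ± 45.9 CPM in bulk MEF (SD, n = 4), with a difference of 0.45 ± 0.59 on the log2 scale (adjusted p = 0.639). Pdgfra had 0 to 26 counts per GMP library and did not pass (-3.16 ± 1.25, adjusted p = 0.0846), although it did in the pooled fit and without fast GMP replicate 1 (adjusted p = 0.00678 and 0.0477).

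Within GMP no gene passed between gates. None of the 6 members tested passed, and neither did any of 10057 genes (0%), of which 742 had an unadjusted p under 0.05; DESeq2 called 42 genes. Vim stood at 205, 369, 1607, 2203 and 710 CPM in fast GMP, against 507, 503 and 302 CPM in slow GMP (1.22 ± 0.85, adjusted p = 0.742). Thy1 stood at 99.3, 253, 25.3, 12.02 and 133 CPM in fast GMP, against 12, 3.72 and 12.8 CPM in slow GMP (3.47 ± 1.23, adjusted p = 0.662), and passed in the pooled fit (3.48, adjusted p = 0.0244). Cd44 was at 97.3 to 181 CPM in fast GMP and 131 to 397 CPM in slow GMP.

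Ordering the 6 groups by mean log2 CPM placed 4 different groups on top. Bulk MEF led for Thy1, Cd44, Ddr2 and Vim, slow MEF for Pdgfra and Pdgfrb, fast GMP for S100a4 and iPS for Eng. The bottom group was iPS for Cd44 and S100a4, slow GMP for Thy1, Pdgfra and Pdgfrb, fast GMP for Ddr2 and Eng, and fast MEF for Vim. Among 40 comparisons of neighbours in these orders, none passed an exact permutation test after adjustment over the 40 (smallest adjusted p = 0.0816). With 4 against 4 libraries that test allows no p below 0.0286, so neighbours could pass only if many reached that floor together. It therefore does not speak against the orders: for Pdgfrb, bulk MEF lay 4.46 above fast MEF on the log2 scale without overlap of libraries. The libraries of neighbours overlapped throughout the order of Eng. A MEF group led for 6 of the 8 genes, all but S100a4 and Eng.

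The wider gene groups around these markers were described with 9 lists of 171 genes. As background, 18.4% of all genes tested were lower and 16.5% higher in fast against bulk MEF, and 23.3% lower and 24.1% higher in iPS against bulk MEF. Of 27 tested genes of the mesenchymal surface, 17 fell and 6 rose in fast against bulk MEF (median log2 fold change -1.83, against -0.05 over all genes), and 21 of 26 fell and 2 rose in iPS against bulk MEF (-2.59, against 0.10). Mcam (-6.48 ± 0.52), Cspg4, a proteoglycan of mural cells (-5.36 ± 0.46), and Cd248, endosialin (-4.01 ± 0.52), fell furthest in fast MEF. Nt5e, the ectoenzyme CD73 that is itself used as a mesenchymal marker (6.11 ± 0.52), and the peptidase gene Mme (5.87 ± 0.86) rose there. In iPS, Ly6a, the stem cell antigen Sca-1 (-8.04 ± 1.10), and Vcam1 (-6.89 ± 0.58) were among the lowest, and Icam1 rose (6.70 ± 0.56). Of 21 fibroblast transcription factors, 11 fell and 1 rose in fast MEF (median -2.03), led by Hic1 (-4.60 ± 0.55), and 16 of 20 fell in iPS (median -4.05), among them Osr1 (-7.87 ± 0.83) and Prrx1 (-6.38 ± 0.88).

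Among partners of the receptors the counts differed by list. Of 17 tested PDGF ligand and signalling genes, 7 fell and 2 rose in fast MEF (median -0.21): the ligand Pdgfc fell (-3.98 ± 0.40), while the ligand Pdgfb rose (2.96 ± 0.55). Of 11 hyaluronan and ERM genes, 6 fell and 4 rose (median -1.57). The hyaluronan synthase Has2 fell (-4.34 ± 0.86), and Ezr, ezrin, which links Cd44 to actin, rose (2.19 ± 0.30) and was also higher in iPS than in bulk MEF (2.17 ± 0.35). Of 5 collagen receptors, 3 fell (median -2.81): Mrc2 (-4.66 ± 0.38), the integrin Itga11 (-4.66 ± 0.68) and Itgb1 (-2.81 ± 0.21). Of 17 endoglin partners and Id genes, 5 fell and 2 rose in fast MEF (median -0.33), counts near the share of all genes called in either direction (34.9%), with Id3 at -3.49 ± 0.50 and Id2 at 4.46 ± 0.96, and in iPS 8 of 17 fell and none rose (median -1.27), Tgfbr2 among them (-4.20 ± 0.76).

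Relatives of S100a4, Vim and Thy1 follow. Of 8 tested S100 genes, 2 rose and 1 fell in fast MEF (median -0.23), near the shares of all genes: S100a14, known from epithelia, rose (9.63 ± 0.67) and S100a6 fell (-1.46 ± 0.43). In iPS 5 of 6 fell (median -3.04), S100a6 at -4.48 ± 0.51. Of 13 tested intermediate filament genes, 6 rose and 3 fell in fast MEF (median 0.40). Krt14 (11.70 ± 0.70), Krt8 (11.45 ± 0.57) and the neurofilament gene Nefl (11.17 ± 0.37) rose, and the muscle filament Des (-5.84 ± 0.93) and the nuclear lamin Lmna (-0.98 ± 0.18) fell. Of 15 GPI-anchored proteins and Thy1-binding integrins, 9 fell and 4 rose in fast MEF (median -2.35), with the glypican Gpc4 at -3.81 ± 0.50 and Cd24a, the surface protein CD24, at 5.18 ± 0.42. In iPS 9 of 12 fell and 1 rose (median -3.04), the prion protein gene Prnp at -5.31 ± 0.38.

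**Figure D4:**
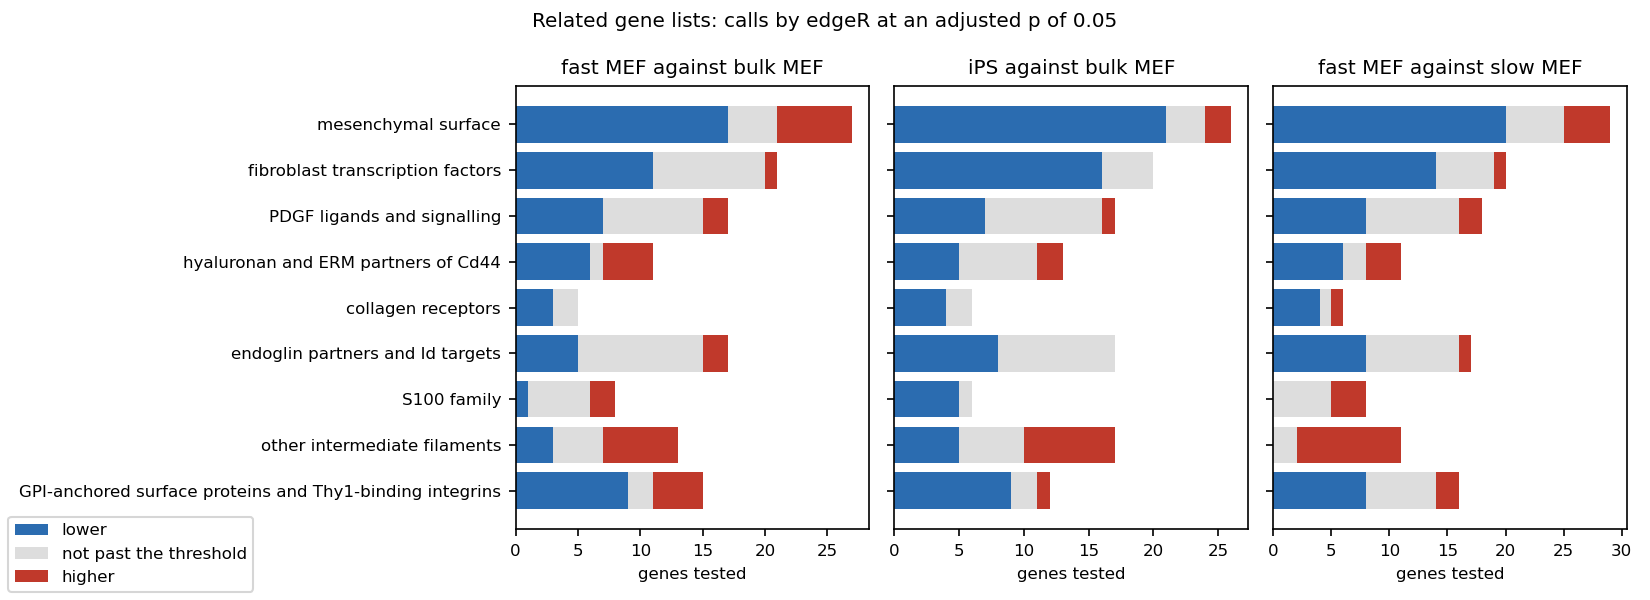
Number of genes tested (horizontal axis) in each of 9 lists around the 8 markers (rows), split into lower, not past the threshold and higher by edgeR, for 3 comparisons (panels). Of the mesenchymal surface list, 17 of 27 are lower in fast against bulk MEF, where 18.4% of all genes tested are. In iPS against bulk MEF 21 of 26 are lower, where 23.3% of all genes tested are. Of the intermediate filament genes, 9 of 11 are higher in fast than in slow MEF, where 14.4% of all genes tested are.

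As a description, each marker was compared with the 8439 genes averaging at least 10 CPM, by Pearson's r of log2 CPM over the 24 libraries, which share depth differences and group structure. Thy1 was closest to the collagen genes Col1a1 (0.938) and Col5a2 (0.937) and to Tgfb1i1 (0.932), and Ddr2 to Sdc2 (0.965), Cald1 (0.960) and Ltbp1 (0.956). Pdgfrb was closest to Slit3 (0.938), Grem1 (0.904) and Vcam1 (0.894), and Pdgfra to Ednra (0.909), Gas1 (0.901) and Bicc1 (0.899). Cd44 was closest to Slc25a24 (0.944), Fam101b (0.910) and Anxa5 (0.900), S100a4 to Runx1 (0.928), B2m (0.911) and Mbnl1 (0.891), and Vim to Pbxip1 (0.876), Lgals1 (0.874) and Chst12 (0.863). Eng had no close companion, the highest being Znf512b (0.677), BC027231 (0.659) and Spnb3 (0.659). Among the 8 themselves, the pairs of highest r were Cd44 with S100a4 (0.817), Thy1 with Pdgfra (0.810) and Thy1 with Ddr2 (0.800), and Eng was negative or near 0 with all others (-0.368 to 0.0697).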

How the data were processed

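RNA of 24 libraries was analysed from the deposited table of raw read counts per gene symbol, whole numbers the authors had not normalized. The tools named in the submitters' processing notes are TopHat2 2.0.4, CASAVA 1.8.2 and HTSeq, with build mm9. No source used here states the annotation, the strand or other settings. Per the labels' protocols, cDNA primed with oligo-dT was amplified, so reads are not independent molecules.

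Groups were compared with edgeR 4.0.16 in R 4.3.3 (quasi-likelihood F test, robust, TMM factors, filterByExpr, Benjamini-Hochberg adjustment over all genes tested, threshold 0.05, two-sided), with only the compared groups in each fit and no covariate. CPM levels used TMM factors over all 24 libraries. Lengths came from GENCODE M21. Exact permutation tests used scipy 1.17.1. The tests were tried on simulated counts. None of 37 library pairs within a group agreed within sampling noise (lowest chi-square per degree of freedom 48.7).

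The 8 genes were named in every comparison, list genes by the largest called fold changes (up to 3 per direction), and similar genes by the 3 highest correlations. A gene that this rule names is not reported here. Other named genes were chosen after their values were seen. Members, lists and tests were chosen with earlier results of these data known. Alternatives were DESeq2 1.42.0, other size factors, other filters, a replicate block, all libraries in 1 fit, no Rn45s and Lars2, thinned counts and each library left out.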

Additional observations from a re-analysis of the deposited data

Results flagged for a closer look

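In 40 groups of 4 or 5 libraries tested for a library far from the rest, 3 were found. Chance alone flags about 1 group in 20, so 3 of 40 is near what chance gives. Eng stood at 177 CPM in slow MEF replicate 4, against 7.38 to 14.6 CPM in the other slow MEF libraries. Pdgfrb stood at 138 CPM in fast GMP replicate 4, against 0.738 to 40.2 CPM in the others. Pdgfra stood at 3.63 CPM in iPS replicate 2, from 41 counts, against 0.446 to 0.801 CPM in the others.

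The difference between gates was itself compared between MEF and GMP, as fast minus slow MEF minus fast minus slow GMP on the log2 scale, a test added after the data were seen, and 1.4% of 13814 genes passed. Thy1 differed by -7.02 ± 1.14 (SE, edgeR adjusted p = 0.00763): it was lower in fast than in slow MEF (-3.56) and at 3.47 in fast against slow GMP. Vim differed by -4.20 ± 0.91 (adjusted p = 0.029), from -2.97 in MEF and 1.22 in GMP. Pdgfra differed by -6.88 ± 1.66 (adjusted p = 0.0444), with at most 26 counts in any GMP library, too few to be tested between the GMP gates themselves. Pdgfrb was at -7.06 ± 1.77 (adjusted p = 0.0551).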

How the results depend on the processing

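Leaving out 1 library at a time gave 6 members called in fast against bulk MEF each time (6 with all libraries), 5 to 6 in iPS against fast MEF (6), 7 to 8 in iPS against bulk MEF (8), 3 to 4 in slow against bulk MEF (4), 5 in fast against slow MEF (5), 0 in fast against slow GMP (0), 4 to 6 in GMP against bulk MEF (5) and 2 to 3 in the midpoint contrast (2). Of 28 pairs in the order of loss, 21 passed and 0 did without any 1 library, since 3 against 4 libraries allow no p below 0.0571. With all 24 libraries in 1 fit, which shares the spread of the GMP libraries with the other groups, 3 members passed in iPS against fast MEF, 0 in slow against bulk MEF and 1 in fast against slow GMP. That fit called 1513, 1675, 3170, 56, 1246, 385, 5040 and 1378 genes in these 8 comparisons, against 3958, 4568, 5566, 1181, 3726, 0, 2594 and 3673. DESeq2 called 2445 genes in slow against bulk MEF, 42 in GMP and 4136 in GMP against bulk MEF. Without 1 bulk MEF library GMP against bulk MEF gave 1450 to 1493 genes, and slow against bulk MEF gave 762 without bulk MEF replicate 4 and 759 without slow MEF replicate 3.

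Values that changed sign had not passed in the first place. Without 1 library the log2 fold change ran from -0.93 to 0.12 for Pdgfra in fast against bulk MEF, and for Eng from -0.086 to 2.53 in slow against bulk MEF, from -1.48 to 1.12 in fast against slow MEF, from -0.81 to 0.60 in GMP and from -0.16 to 0.36 in the midpoint contrast. It ran from -0.18 to 0.71 for S100a4 in GMP and from -0.34 to 0.029 for Ddr2 in the midpoint contrast. Same-numbered libraries deviated little together (correlations of -0.06 to 0.08). In the comparisons of 2 groups, 2 to 5 of 8 libraries correlated best with their own number (1 of 6 in GMP). The 5 of 8 were found in iPS against fast MEF and in iPS against bulk MEF. Whether equal numbers mark a shared culture or batch cannot be decided from these values. With the replicate block, Eng in fast against slow MEF was at 0.30 and S100a4 in GMP at -0.042, S100a4 in slow against bulk MEF did not pass (-1.26, adjusted p = 0.0795), and 3587 genes were called in fast against bulk MEF and 870 in slow against bulk MEF. Upper-quartile factors moved the median of all genes from -0.05 to 0.07 in fast against bulk MEF and from 0.18 to 0.37 in GMP against bulk MEF. Depth limits Pdgfra and Ddr2 in GMP, with 0 counts in some libraries.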
